A study of Mus musculus with 8 samples.

Results

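The 39 genes described here carry out glucose uptake, glycolysis and lactate export or belong to the response of cells to low oxygen. They were taken as a fixed list of symbols, matched to Ensembl gene identifiers. The list was chosen with earlier results of these data known, so its shares of calls describe the listed genes and are no independent evidence. They are 39 of the 30731 genes that the count tables of both cell lines share. Of these, 25 act in glucose uptake, glycolysis and the handling of its products, 3 sense oxygen and 11 are genes known to be induced by hypoxia. One symbol, Aldoa, has a second, nearly silent gene entry, which is treated apart.

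Glycolysis splits glucose into pyruvate in the cytosol, and lactate dehydrogenase then reduces pyruvate to lactate, which leaves the cell through monocarboxylate transporters. When oxygen is low, prolyl hydroxylases of the Egln family stop marking the transcription factor subunit HIF-1α (encoded by Hif1a) for destruction. HIF-1 then raises transcription of most glycolytic enzymes, of glucose transporters and of genes for angiogenesis, mitophagy and collagen hydroxylation. Proliferating T cell precursors and fibroblasts in culture both use glycolysis heavily.

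The study asked how TCF-1, a T lineage transcription factor with a high mobility group DNA-binding domain encoded by Tcf7, reshapes the folded genome, and these RNA-seq libraries record gene expression in 2 mouse cell lines. NIH-3T3, an embryonic fibroblast line, was read without treatment (normal) and with TCF-1 induced. Per the file headers, all 4 NIH-3T3 libraries carried Cas9, an empty LRG21 vector and the pIND21_P33 vector and are marked 72 hours, and doxycycline is named for the induced libraries alone, so that TCF-1 and doxycycline cannot be told apart there. Scid.adh, a thymic lymphoma line that the titles call DN3 (a double-negative stage of early T cell development), was read as wild type with an empty vector and as a Tcf7-/- knockout. Each of the 4 groups held 2 libraries. Nothing in the labels tells if 2 libraries of a group are separate cultures or if the knockout is 1 clone, so a p-value here reflects spread among libraries, which may be technical.

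Gene-assigned reads per library ran from 13850213 to 17523677 in NIH-3T3 and from 7740198 to 10392402 in Scid.adh, where the knockout libraries were the shallower ones yet had more genes above 0 (20406 and 20463) than the empty vector libraries (18084 and 18041). Levels are given in CPM, the gene's share of a library's counts scaled to a common size after TMM adjustment. Tcf7, the targeted gene, was at 14.45 and 14.65 CPM in normal NIH-3T3 and at 945.9 and 971.5 CPM after induction. In Scid.adh its level was 1318 and 1325 CPM in empty vector libraries against 646.4 and 624.5 CPM in knockout libraries, so that transcripts of the gene remained there. The 11 fibroblast markers summed to between 24250 and 27260 CPM in NIH-3T3, and the 14 T lineage markers summed to between 5088 and 5975 CPM in Scid.adh, so each line carried the markers its label calls for. In Scid.adh the T lineage sum was lower in the knockout libraries (5088 and 5180 CPM against 5975 and 5960 CPM), while 10 myeloid markers summed to 33.32 and 31.57 CPM there against 21.96 and 16.98 CPM. The single markers were mixed. Of 13 T lineage markers tested 7 fell and 3 rose, where 15.9% of all tested genes fell and 15.6% rose. Of 4 myeloid markers tested 2 rose and 2, both below 0, did not pass, and the other 6 were too low to test. The part of these shifts in the results below was not tested, and in bulk RNA fewer cells of a type and less RNA per cell cannot be told apart.

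Promoters of the genes with the largest changes are shown first, because HIF-1 and TCF-1 both act through short DNA words. Each sequence is the 250 bases before the annotated start site nearest the 5′ end of the gene (RefSeq, GRCm38.p6), written 5′ to 3′ on the strand of the gene. Capitals mark ACGTG or GCGTG on either strand, the core words of HIF binding. The palindrome CACGTG holds ACGTG once on each strand and so counts as 2 overlapping matches.
Hk2 (chr6:82774455-82774704, minus strand): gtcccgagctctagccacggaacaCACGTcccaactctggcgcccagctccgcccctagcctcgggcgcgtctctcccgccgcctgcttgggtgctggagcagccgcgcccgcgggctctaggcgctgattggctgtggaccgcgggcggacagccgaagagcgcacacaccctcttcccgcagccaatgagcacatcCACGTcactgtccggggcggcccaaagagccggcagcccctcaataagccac
Ankrd37 (chr8:45999851-46000100, minus strand): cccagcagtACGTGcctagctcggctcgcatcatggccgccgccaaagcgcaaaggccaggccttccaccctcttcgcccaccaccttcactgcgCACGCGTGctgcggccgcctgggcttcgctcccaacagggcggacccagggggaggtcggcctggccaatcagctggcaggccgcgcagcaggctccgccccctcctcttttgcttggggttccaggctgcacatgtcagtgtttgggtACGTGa
Slc16a1 (chr3:104638414-104638663, plus strand): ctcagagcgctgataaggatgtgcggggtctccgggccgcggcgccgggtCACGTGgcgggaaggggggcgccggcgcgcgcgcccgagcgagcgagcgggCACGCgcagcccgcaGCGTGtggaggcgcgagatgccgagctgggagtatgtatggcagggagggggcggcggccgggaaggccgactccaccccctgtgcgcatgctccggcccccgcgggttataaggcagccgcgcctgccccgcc
Hif1a (chr12:73907617-73907866, plus strand): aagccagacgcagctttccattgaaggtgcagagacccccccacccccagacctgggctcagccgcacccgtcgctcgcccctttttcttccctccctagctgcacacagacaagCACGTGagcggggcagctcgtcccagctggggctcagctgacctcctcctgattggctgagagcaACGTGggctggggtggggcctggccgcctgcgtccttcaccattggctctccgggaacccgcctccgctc
Hk1 (chr10:62379909-62380158, minus strand): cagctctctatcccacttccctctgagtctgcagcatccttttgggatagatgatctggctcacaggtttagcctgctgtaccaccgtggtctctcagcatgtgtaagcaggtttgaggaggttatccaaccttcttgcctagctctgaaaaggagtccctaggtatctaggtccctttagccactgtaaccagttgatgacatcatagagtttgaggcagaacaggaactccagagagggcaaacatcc
Pfkp (chr13:6648772-6649021, minus strand): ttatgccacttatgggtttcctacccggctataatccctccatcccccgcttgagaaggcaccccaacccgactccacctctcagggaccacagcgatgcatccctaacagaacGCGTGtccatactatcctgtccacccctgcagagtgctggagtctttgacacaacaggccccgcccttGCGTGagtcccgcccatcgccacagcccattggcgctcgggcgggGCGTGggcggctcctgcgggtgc
Bnip3 (chr7:138909507-138909756, minus strand): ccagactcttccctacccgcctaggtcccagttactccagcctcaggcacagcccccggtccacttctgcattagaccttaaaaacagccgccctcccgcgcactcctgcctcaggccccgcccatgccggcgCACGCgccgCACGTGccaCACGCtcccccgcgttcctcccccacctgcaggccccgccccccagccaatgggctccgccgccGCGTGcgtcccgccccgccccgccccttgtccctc

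The NIH-3T3 falls are represented by Hk2 and Ankrd37, the NIH-3T3 rises by Slc16a1 and Hif1a, the Scid.adh falls by Hk1 and Pfkp, and the Scid.adh rises by Bnip3. The number of marked matches was 2 for Hk2, 4 for Ankrd37, 4 for Slc16a1, 3 for Hif1a, 0 for Hk1, 3 for Pfkp and 5 for Bnip3. The promoter table had an entry for 36 of the 39 genes and none for Bnip3l, Ndrg1 and Slc2a3. Of the 36, 29 (80.6%) held ACGTG or GCGTG, against 38.6% of 32851 promoters of the same length. Another annotated start site of Hk1 had 3 matches in its window, and with all listed start sites counted 33 of the 36 genes held one. By group, 18 of 24 glycolytic genes and 11 of 12 oxygen-sensing or hypoxia-induced genes held it. The promoters of these genes were also richer in G and C (median 62.8% against 52.4%) and held more CpG dinucleotides (median 16.5 against 6). CTTTGA or CTTTGT on either strand, the core words of TCF and LEF factors, lay in 4 of the 36 (11.1%), against 27.6% of all promoters. ACGTG and GCGTG each hold a CpG, and CTTTGA and CTTTGT hold none. The promoters compared were not matched for composition, so neither difference in share can be told apart from it. A match here is a run of letters and shows no binding, and a window without one says only that these letters are not in it.

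In NIH-3T3 with TCF-1 induced, most of the 39 genes were lower, from glucose entry to the last glycolytic step and through the hypoxia-induced set, while Hif1a itself and the lactate transporter gene Slc16a1 were higher. Of 38 genes tested, 31 fell, 3 rose and 4 did not pass. Aldoc, at 12 counts or fewer in every library, was not tested. Across all 18185 genes tested in this line 36.8% were called, 18.3% as falls and 18.5% as rises, and among the 4567 of them that averaged 50 CPM or more 61.6% were called (34.0% fell and 27.5% rose). Of the 38 tested genes 81.6% fell and 7.89% rose, with a median log2 fold change of −0.39 against 0.00 for all tested genes. The groups of 2 libraries did not overlap for 36 of the 38, as they did not for 11832 of the 18185. Calls rest on edgeR's quasi-likelihood test at an adjusted p under 0.05.

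**Figure D1:**
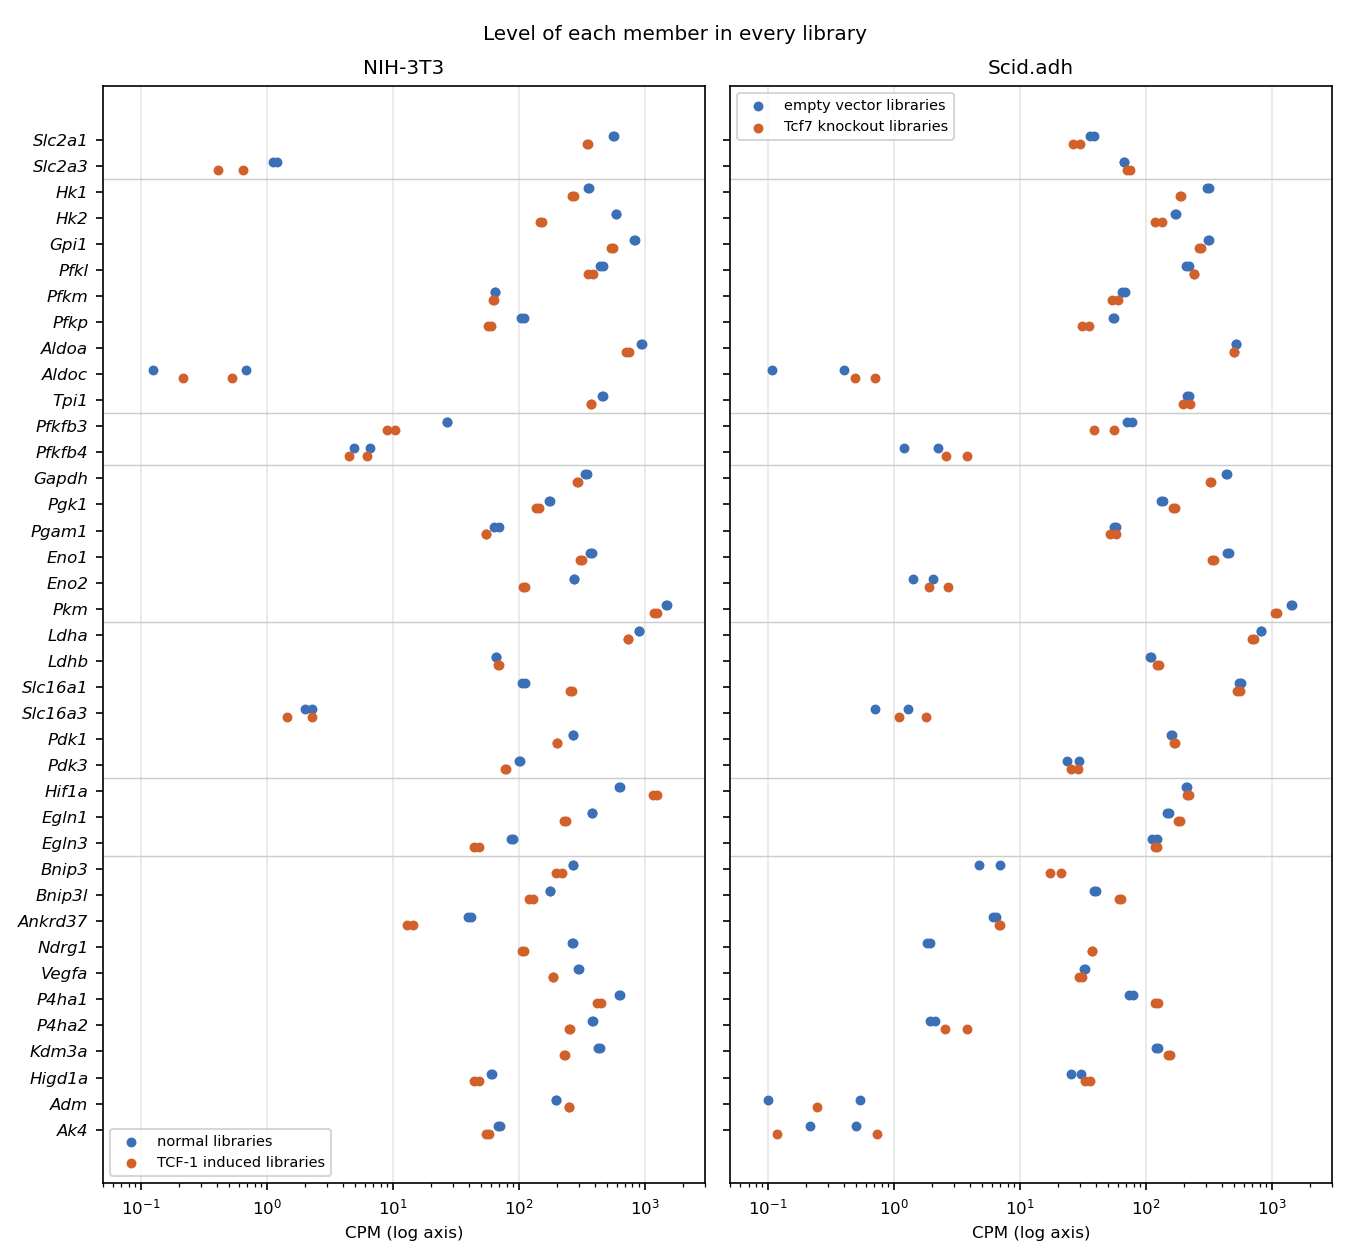
Each point is 1 library, placed by its CPM on a log axis, for the 39 genes in order of their role in the pathway, with NIH-3T3 on the left and Scid.adh on the right (Adm is at 0 in 1 knockout library and has no point there). In NIH-3T3 the TCF-1 induced libraries lie to the left of the normal ones for most genes and to the right for Slc16a1, Hif1a and Adm; in Scid.adh the widest gap is that of Ndrg1, from 1.813 and 1.922 to 37.33 and 37.50 CPM.

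Of the glucose transporter genes Slc2a1 and Slc2a3, Slc2a1 made up 99.9% of the per-kilobase transcript level in the normal NIH-3T3 libraries. Slc2a1 stood at 571.3 and 558.0 CPM in the normal libraries and at 356.4 and 351.2 CPM after induction. This was a fall of 1.60-fold (log2 −0.67, SE 0.03, adjusted p 1.71e-21), and the groups did not overlap. Slc2a3, the high-affinity transporter gene, was near the limit of detection with 18 and 21 counts against 7 and 9, and its fall (log2 −1.16, SE 0.42, adjusted p 0.0245) no longer passed without normal replicate 1, normal replicate 2 or induced replicate 1.

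Hexokinase, which traps glucose in the cell as glucose 6-phosphate, showed the largest change of all 38 tested. Hk2 stood at 586.9 and 591.2 CPM in the normal libraries and at 153.8 and 148.8 CPM after induction, a 3.89-fold fall (log2 −1.96, SE 0.04, adjusted p 1.34e-37). The induced libraries lay far below the normal ones with no overlap. Hk1, the constitutive isozyme, fell by a log2 value of 0.41 in the same comparison. On the per-kilobase scale Hk2 thus went from 70.2% ± 0.23 (SD, n = 2) of the hexokinase pair to 44.7% ± 0.12 (SD, n = 2), and its rank among the 39 genes went from 12 to 26.

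The next steps of upper glycolysis moved less. Gpi1, glucose 6-phosphate isomerase, stood at 837.2 and 824.4 CPM in the normal libraries and at 560.8 and 537.4 CPM after induction (log2 −0.60, SE 0.03, adjusted p 2.99e-20). Among the phosphofructokinase genes, which encode the committed step, Pfkp fell from 104.8 and 110.7 CPM to 60.43 and 57.02 CPM (log2 −0.87, SE 0.05, adjusted p 2.12e-18). Neither gene showed overlap between its groups. Pfkl had a log2 fold change of −0.29 and was called as a fall, whereas Pfkm, at −0.04 with an adjusted p of 0.665, did not pass. Aldoa and Tpi1, for aldolase and triose phosphate isomerase, fell by log2 values of 0.36 and 0.31.

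Fructose 2,6-bisphosphate is the strongest activator of phosphofructokinase, and Pfkfb3 encodes an enzyme that makes it. Pfkfb3 stood at 27.09 and 26.83 CPM in the normal libraries and at 10.48 and 8.938 CPM after induction, a 2.76-fold fall (log2 −1.46, SE 0.10, adjusted p 1.06e-16) with no overlap. Its relative Pfkfb4 lay at 6.632 and 4.883 CPM against 4.535 and 6.199 CPM; the groups overlapped and the difference did not pass (adjusted p 0.663).

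All 6 genes of lower glycolysis fell, 5 of them modestly. Gapdh, Pgk1, Pgam1, Eno1 and Pkm had log2 fold changes between −0.31 and −0.21. Eno2, the enolase known from neurons and induced by hypoxia, stood at 274.8 and 277.1 CPM in the normal libraries and at 112.1 and 108.9 CPM after induction. This 2.5-fold fall (log2 −1.32, SE 0.04, adjusted p 4.36e-29) took Eno2 from 45.7% ± 0.59 (SD, n = 2) to 29.0% ± 0.12 (SD, n = 2) of the per-kilobase level of Eno1 and Eno2. Reads of Eno1 are shared with a near copy, Eno1b, whose count was 13.1% of that of Eno1 in this line, so the split between them is uncertain. Over the 15 genes that encode the glycolytic steps the summed level was 6596 and 6478 CPM in the normal libraries and 4794 and 4616 CPM after induction.

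The genes that handle pyruvate and lactate did not move together. Slc16a1, encoding the monocarboxylate transporter MCT1, stood at 105.4 and 112.6 CPM in the normal libraries and at 257.4 and 263.7 CPM after induction. It rose 2.39-fold (log2 1.26, SE 0.04, adjusted p 9.91e-28), the largest rise among the 38, with no overlap between the groups. Ldha, which encodes the dehydrogenase subunit that favours lactate, and the pyruvate dehydrogenase kinase genes Pdk1 and Pdk3 fell, with log2 fold changes of −0.27, −0.41 and −0.36. Ldhb (log2 0.06, adjusted p 0.451) and Slc16a3 (log2 −0.17, adjusted p 0.666), the latter at 2.298 CPM or less in every library, did not pass.

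Hif1a and the prolyl hydroxylase genes Egln1 and Egln3 moved in opposite directions. Hif1a stood at 632.8 and 620.7 CPM in the normal libraries and at 1172 and 1249 CPM after induction, a 1.93-fold rise (log2 0.95, SE 0.03, adjusted p 1.37e-27). Egln1, the main oxygen sensor, stood at 382.3 and 381.3 CPM against 238.4 and 229.7 CPM, and fell (log2 −0.70, SE 0.04, adjusted p 5.33e-21). Egln3 stood at 89.28 and 86.11 CPM against 44.12 and 48.15 CPM, and fell 1.91-fold (log2 −0.93, SE 0.06, adjusted p 3.52e-18). None of these 3 genes had overlapping groups. Exons of Hif1a share 330 bases with Gm15283 on the opposite strand, which had 1587 and 1624 counts in the normal libraries and 3143 and 2512 in the induced ones; without a stated strand setting, reads from the shared stretch cannot be told apart.

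Of the 11 hypoxia-induced genes, 10 fell and Adm rose. Ankrd37, an ankyrin repeat protein gene, stood at 42.10 and 39.75 CPM in the normal libraries and at 13.02 and 14.42 CPM after induction, a 2.99-fold fall (log2 −1.58, SE 0.08, adjusted p 2.64e-20). Ndrg1, a stress-responsive gene, stood at 269.6 and 266.0 CPM against 105.4 and 111.1 CPM, a 2.48-fold fall (log2 −1.31, SE 0.04, adjusted p 1.29e-28). In both genes every induced library lay below every normal one. Kdm3a, a histone H3 lysine demethylase gene, stood at 425.6 and 439.7 CPM against 231.0 and 228.2 CPM (log2 −0.91, SE 0.04, adjusted p 2.97e-25).

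Vegfa, which encodes the main angiogenic growth factor, stood at 302.4 and 296.7 CPM in the normal libraries and at 186.5 and 187.3 CPM after induction (log2 −0.68, SE 0.04, adjusted p 9.09e-20). P4ha2, one of the collagen prolyl 4-hydroxylase subunit genes, stood at 386.1 and 384.9 CPM against 256.9 and 252.4 CPM (log2 −0.60, SE 0.04, adjusted p 9.23e-19). The groups were clear of each other in both. P4ha1, the mitophagy receptor genes Bnip3 and Bnip3l, the mitochondrial membrane protein gene Higd1a and the mitochondrial adenylate kinase gene Ak4 fell with log2 fold changes between −0.54 and −0.31. Adm, encoding the secreted peptide adrenomedullin, stood at 197.5 and 197.7 CPM against 249.6 and 251.7 CPM and rose (log2 0.34, SE 0.04, adjusted p 3.11e-10). Ankrd37 shares 349 exon bases with Lrp2bp, Ndrg1 shares 419 with Gm17035 and Bnip3 shares 504 with Gm45507, each on the opposite strand, with the same limit as for Hif1a. That limit also holds for Higd1a (683 bases with Gm47112), Gpi1 (741 with Gm26762) and Pfkp (748 with Pitrm1). Pkm shares 767 exon bases with Gm49759 on the same strand, and reads from that stretch cannot be told apart either.

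**Figure D2:**
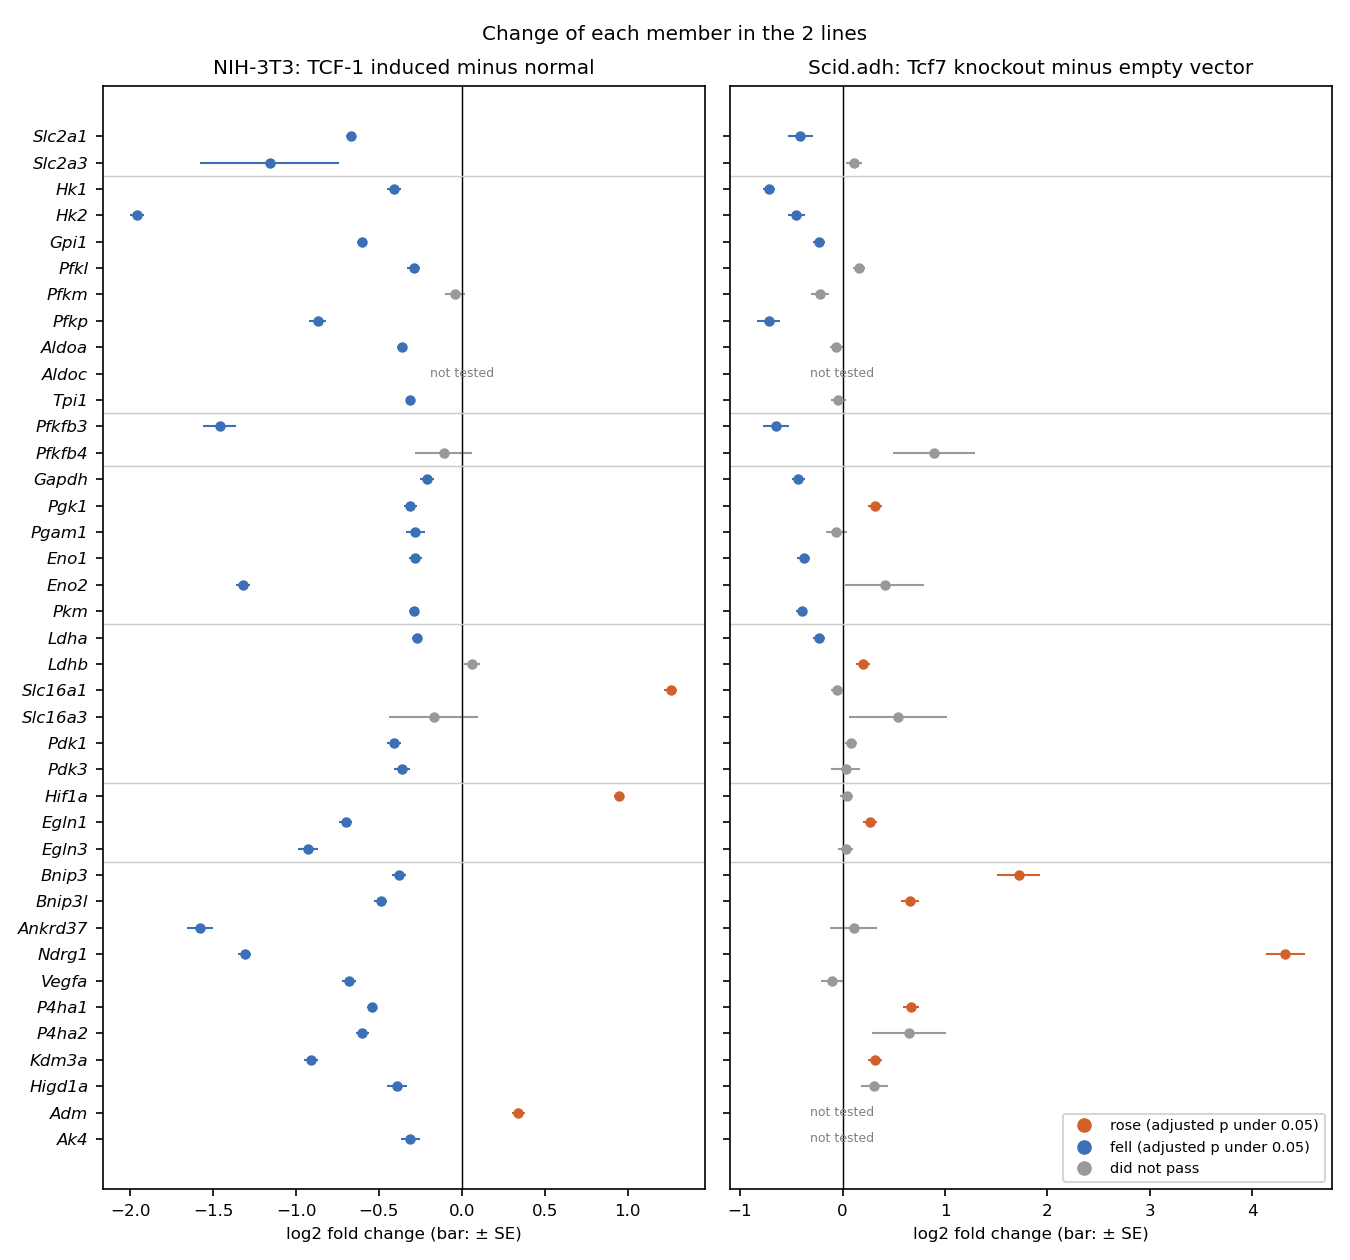
Each point is the log2 fold change of 1 gene and its bar is ± 1 standard error, for NIH-3T3 (TCF-1 induced minus normal) on the left and Scid.adh (knockout minus empty vector) on the right, with separate axis ranges; colour gives the call. In the left panel 31 points are falls, 3 are rises (Slc16a1, Hif1a and Adm) and 4 did not pass; in the right panel 10 are falls, all glycolytic, 8 are rises, among them Pgk1 and Ldhb of glycolysis and Ndrg1 at 4.32, and 18 did not pass.

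In the Scid.adh libraries labelled Tcf7 knockout, the called genes of the list mostly differed in direction by group. Among glycolytic genes 10 fell, among them hexokinases, Gapdh and Pkm, while Pgk1 and Ldhb rose and 12 did not pass. Ndrg1, Bnip3 and some other hypoxia-induced genes of the list rose. This did not extend to 23 other hypoxia-induced genes described below, of which 4 rose and 4 fell. Of 36 genes tested, 8 rose, 10 fell and 18 did not pass, and Aldoc, Adm and Ak4 were not tested, with 6 counts or fewer in every library. Across all 11941 genes tested in this line 31.5% were called, 15.6% as rises and 15.9% as falls. Among the 4556 of them that averaged 50 CPM or more 36.5% were called (8.52% rose and 28.0% fell). The groups of 2 libraries did not overlap for 29 of the 36, as they did not for 7968 of the 11941, so a lack of overlap was common in this line. Of 24 glycolytic genes 10 (41.7%) fell and 2 rose, with a median log2 fold change of −0.06. Of 12 oxygen-sensing and hypoxia-induced genes 6 rose and 0 fell, with a median of 0.31, against −0.004 for all tested genes; at an unadjusted p under 0.05 0 of the 12 fell as well, and DESeq2 called 0 as falls. Upper-quartile scaling moved the balance of all calls from 49.5% to 66.9% rises and gave 10 rises and 7 falls among the 39 genes. Without empty vector replicate 1 or replicate 2, 5 of the 39 genes rose in place of 8.

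The 2 largest rises were genes nearly silent before the knockout. Ndrg1 stood at 1.813 and 1.922 CPM in empty vector libraries against 37.33 and 37.50 CPM in knockout libraries, from 18 and 18 counts to 307 and 316. The gene lies at chr15:66929318-66969640 on the minus strand (GRCm38). This was a 19.9-fold rise (log2 4.32, SE 0.19, adjusted p 1.05e-08). Bnip3 stood at 4.735 and 6.940 CPM against 21.16 and 17.33 CPM, a 3.30-fold rise (log2 1.72, SE 0.21, adjusted p 0.000104). Neither gene had overlapping groups, and the antisense genes Gm17035 and Gm45507 had 0 counts in all 4 libraries. Even so, the knockout levels of both stayed below those of normal NIH-3T3, where Ndrg1 was at 269.6 and 266.0 CPM and Bnip3 at 270.8 and 271.5 CPM, values from a separate table that are set side by side without a test.

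P4ha1 and Bnip3l were already expressed and rose less. P4ha1 stood at 73.55 and 79.12 CPM in empty vector libraries against 124.9 and 118.0 CPM in knockout libraries (log2 0.67, SE 0.08, adjusted p 6.04e-05). Bnip3l stood at 38.69 and 40.25 CPM against 60.68 and 63.85 CPM (log2 0.66, SE 0.09, adjusted p 0.000315). The knockout libraries were the higher ones in each case with no overlap. Kdm3a stood at 124.2 and 119.4 CPM against 155.4 and 148.5 CPM (log2 0.32, SE 0.07, adjusted p 0.00394) and lost its call without empty vector replicate 2. Over the 11 hypoxia-induced genes the summed level was 309.1 and 320.0 CPM with the empty vector and 476.9 and 458.0 CPM in the knockout.

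The remaining hypoxia-induced genes gave no call. P4ha2 stood at 1.914 and 2.135 CPM in empty vector libraries and 2.554 and 3.798 CPM in knockout libraries (adjusted p 0.188), so this collagen-modifying gene stayed near the floor in the libraries where P4ha1 rose. Higd1a (log2 0.31, adjusted p 0.0839), Ankrd37 (0.11, adjusted p 0.737) and Vegfa (−0.10, adjusted p 0.532) did not pass either. Fibroblast markers were low in these libraries but did not move one way. Of the 5 tested, Pdgfrb (1188 and 1172 counts against 36 and 32) and S100a4 (19 and 14 against 5 and 5) fell. Col1a1 (4 and 3 counts against 15 and 14), Col1a2 (8 and 5 against 20 and 19) and Pdgfra (3 and 4 against 15 and 15) rose, with log2 fold changes of 2.22, 1.78 and 2.27. The other 6 were too low to test, with 0 counts of Col3a1, Dcn, Lum and Postn in both empty vector libraries and 4 or fewer in the knockout ones. All 11 summed to 123.7 and 128.3 CPM against 12.52 and 12.11 CPM, a fall set by Pdgfrb. The part of these shifts in the rises of Ndrg1, Bnip3 and the other hypoxia-induced genes was not tested.

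Of the oxygen-sensing genes in the fixed list, Egln1 rose, and Hif1a and Egln3 did not pass. Egln1 stood at 148.1 and 153.6 CPM in empty vector libraries against 185.4 and 179.6 CPM in knockout libraries (log2 0.27, SE 0.07, adjusted p 0.0068). The groups did not overlap, but the call was lost without empty vector replicate 1 or replicate 2. Hif1a stood at 206.5 and 211.9 CPM against 218.1 and 212.2 CPM, with a log2 fold change of 0.04 (SE 0.06, adjusted p 0.66). Egln3 had a log2 fold change of 0.03 (SE 0.07, adjusted p 0.786). Egln2, a further prolyl hydroxylase gene, is counted below with the other components of the HIF pathway. Opposite to Egln1, it fell, from 59.95 and 55.09 CPM to 43.78 and 43.67 CPM (log2 −0.40, SE 0.10, adjusted p 0.00778).

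The falls in Scid.adh lay along the glycolytic route. Hk1 stood at 304.1 and 318.6 CPM in empty vector libraries against 187.9 and 189.4 CPM in knockout libraries, a 1.65-fold fall (log2 −0.72, SE 0.06, adjusted p 4.7e-06). Hk2 stood at 171.6 and 174.8 CPM against 117.5 and 135.3 CPM (log2 −0.45, SE 0.08, adjusted p 0.000849). Both hexokinase genes were clearly lower in the knockout, and the per-kilobase level of the pair went from 65.5 to 43.3 CPM per kb. Pfkp stood at 54.71 and 55.31 CPM against 31.01 and 35.60 CPM, also a 1.65-fold fall (log2 −0.72, SE 0.11, adjusted p 0.000337). Pfkfb3 stood at 77.28 and 70.68 CPM against 38.55 and 55.42 CPM (log2 −0.65, SE 0.13, adjusted p 0.00331), with a wide gap between the knockout libraries but no overlap with the empty vector ones.

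Gapdh, for the step that makes NADH, stood at 434.4 and 439.9 CPM in empty vector libraries against 321.6 and 328.7 CPM in knockout libraries (log2 −0.43, SE 0.06, adjusted p 0.000219). Pkm, for pyruvate kinase, stood at 1447 and 1420 CPM against 1065 and 1106 CPM (log2 −0.40, SE 0.05, adjusted p 0.000192). Eno1 stood at 455.6 and 436.4 CPM against 335.2 and 349.6 CPM (log2 −0.38, SE 0.06, adjusted p 0.000589). These 3 genes of lower glycolysis had knockout libraries well below the others. Pgk1, between them in the pathway, went the other way, from 130.8 and 136.2 CPM to 163.8 and 168.8 CPM (log2 0.32, SE 0.07, adjusted p 0.00341), and lost its call without empty vector replicate 1. Over the 15 genes of the glycolytic steps the summed level was 4397 and 4373 CPM with the empty vector and 3566 and 3640 CPM in the knockout.

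The smaller changes in Scid.adh depended more on single libraries or on the scaling. Slc2a1 stood at 38.39 and 35.98 CPM in empty vector libraries and 29.91 and 26.23 CPM in knockout libraries (log2 −0.41, SE 0.12, adjusted p 0.0198), and lost its call without empty vector replicate 1 or knockout replicate 2, with upper-quartile scaling and with DESeq2's test. Gpi1 stood at 318.4 and 313.8 CPM against 265.4 and 272.7 CPM (log2 −0.23, SE 0.06, adjusted p 0.0103). Ldha stood at 825.3 and 822.7 CPM against 717.1 and 691.1 CPM (log2 −0.23, SE 0.06, adjusted p 0.00867). Calls of both were lost without either empty vector replicate and with upper-quartile or cyclic loess scaling. Ldhb, for the lactate dehydrogenase subunit that favours pyruvate, stood at 109.1 and 107.9 CPM against 126.5 and 122.5 CPM and rose by a log2 value of 0.20 (SE 0.07, adjusted p 0.0457), a call that was lost without empty vector replicate 1, empty vector replicate 2 or knockout replicate 1, and also with DESeq2's test, limma-voom, no filter on low counts or the replicate block. The most abundant transporter gene per kilobase, Slc16a1, did not pass in this line, at 572.4 and 552.4 CPM against 556.6 and 528.9 CPM with overlapping groups (log2 −0.05, SE 0.06, adjusted p 0.546).

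Isozyme make-up, computed per kilobase of merged exons, set the lines apart and moved within them. Enolase was split between Eno1 and Eno2 in normal NIH-3T3 (54.3% and 45.7%), while Eno2 was 0.441% of the pair in Scid.adh with the empty vector. Slc2a3 was 0.0999% of the glucose transporter pair in normal NIH-3T3 and 46.7% in empty vector Scid.adh, rising to 55.6% ± 1.2 (SD, n = 2) in the knockout. Pfkp, on this scale the smallest part of the phosphofructokinases, went from 8.41% to 5.54% in NIH-3T3 and from 7.30% to 4.47% in Scid.adh. Its place depends on the length used, as its merged exons span 13401 bases against 3340 for Pfkm. By CPM, Pfkp was above Pfkm in normal NIH-3T3 (104.8 and 110.7 against 64.63 and 64.68). With the empty vector in Scid.adh it was below (54.71 and 55.31 against 64.78 and 68.23). Ldhb went from 13.5% to 16.4% of the lactate dehydrogenase pair in NIH-3T3 and from 21.7% to 27.2% in Scid.adh, with SDs of 0.23 or less. These shares are descriptions of 2 libraries a group, and no test was run on them.

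**Figure D3:**
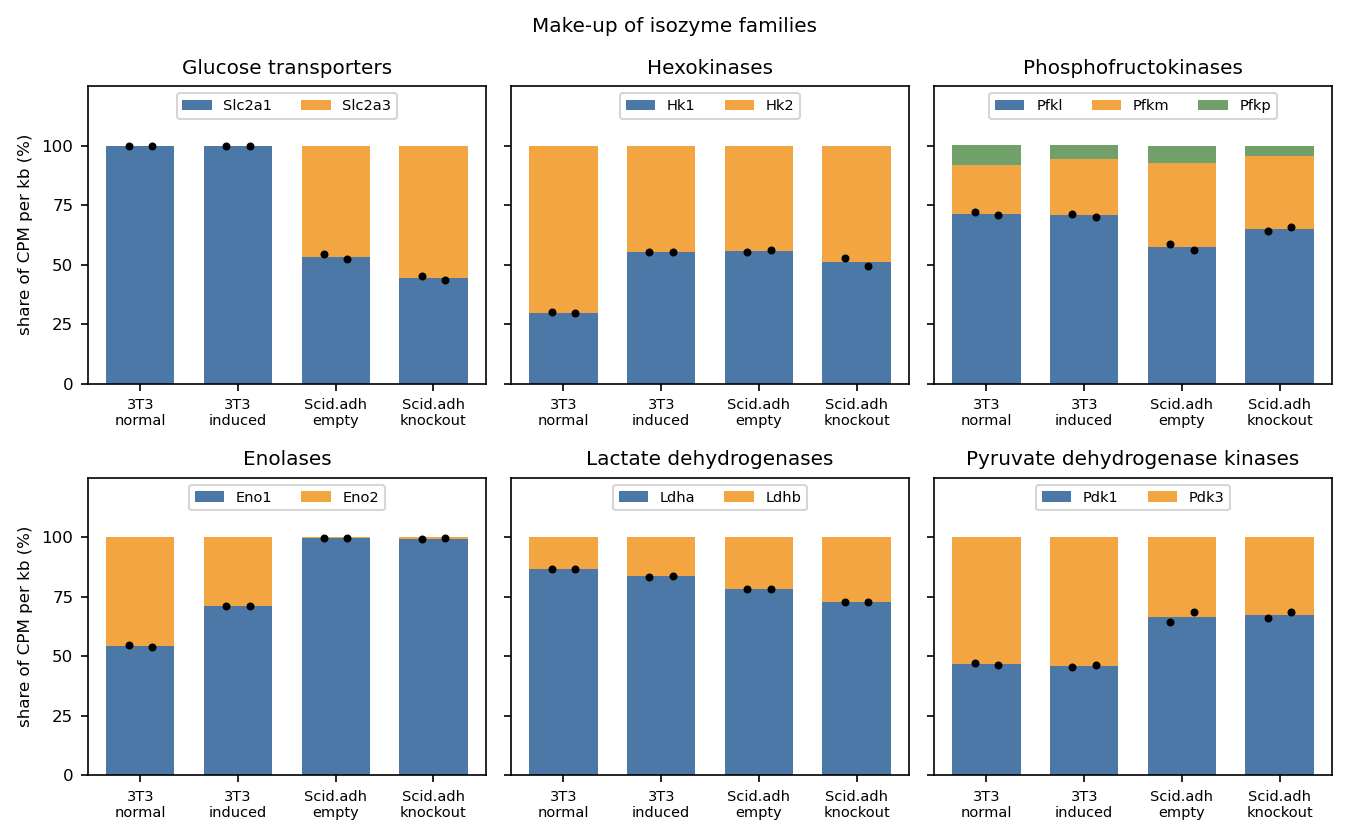
Stacked bars give the mean share of each isozyme gene in its family, as a percentage of CPM per kilobase of merged exons, in the 4 groups; black points are the share of the bottom gene in each library. The Hk1 part grows from 29.8% to 55.3% on TCF-1 induction, Eno2 is visible in NIH-3T3 alone, and Slc2a3 shares the transporter family with Slc2a1 in Scid.adh alone.

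By level per kilobase the order of the 39 genes was similar at the top in both lines. In normal NIH-3T3 it began with Aldoa (323.9 CPM per kb), Pkm (298.4), Ldha (270.8), Tpi1 (168.7) and Slc2a1 (161.1). In empty vector Scid.adh it began with Pkm (286.7 CPM per kb), Ldha (248.9), Aldoa (179.5), Slc16a1 (127.1) and Gapdh (105.8). Induction took Hif1a from rank 10 to rank 4 in NIH-3T3, at 106.3 and then 205.3 CPM per kb, and Adm from rank 8 to rank 5.

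Calling a gene in each line does not show whether the lines respond alike, so the effect of more TCF-1 was compared directly: induced minus normal in NIH-3T3 against empty vector minus knockout in Scid.adh. Of 38 genes tested, 23 had a lower value in NIH-3T3, 4 a higher one and 11 did not pass. Across 15854 genes 28.8% passed this test, 14.5% higher and 14.3% lower; with upper-quartile scaling, which shifted the median of all genes from 0.066 to 0.157 on the log2 scale, 64.7% of the calls were higher in place of 50.2%.

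All 10 genes that fell in the Scid.adh knockout libraries had also fallen in NIH-3T3 on induction, so the sign of their change with TCF-1 was opposite in the 2 lines. These were Slc2a1, Hk1, Hk2, Gpi1, Pfkp, Pfkfb3, Gapdh, Eno1, Pkm and Ldha, and each passed the test of the difference, with log2 differences between −2.46 for Hk2 (SE 0.08, adjusted p 1.28e-21) and −0.54 for Ldha (SE 0.07, adjusted p 8.55e-08). In NIH-3T3 81.6% of all 38 tested genes fell, and against that share the overlap of these 10 is to be read.

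Another 7 genes fell on induction in NIH-3T3 and rose in the Scid.adh knockout, that is, they were lower with more TCF-1 in both lines. They were Pgk1, Egln1, Bnip3, Bnip3l, Ndrg1, P4ha1 and Kdm3a, of which 5 are hypoxia-induced genes. For 3 of them the difference between the lines did not pass: Pgk1 (log2 −0.04, SE 0.08), Bnip3l (0.12, SE 0.10) and P4ha1 (0.09, SE 0.08). The response was larger in Scid.adh for Ndrg1 (2.97, SE 0.19, adjusted p 2.55e-14) and Bnip3 (1.30, SE 0.18, adjusted p 1.31e-06). It was larger in NIH-3T3 for Egln1 (−0.47, SE 0.08, adjusted p 1.29e-05) and Kdm3a (−0.64, SE 0.08, adjusted p 1.08e-07). The 7 genes were among the 8 that rose in Scid.adh. This overlap too is to be read against the 81.6% of the 38 tested genes that fell in NIH-3T3.

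The rises of Slc16a1 and Hif1a in NIH-3T3 also stood apart from Scid.adh, with differences of 1.16 (SE 0.08, adjusted p 8.24e-14) and 0.95 (SE 0.07, adjusted p 4.45e-12). Ankrd37 (−1.51, SE 0.22, adjusted p 2.97e-06), Egln3 (−0.94, SE 0.10, adjusted p 2.39e-09) and Vegfa (−0.83, SE 0.10, adjusted p 1.35e-07) fell in NIH-3T3 and gave no call in Scid.adh, and their differences passed.

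Neighbouring pathways were described by lists of further genes, to be read against the shares of all tested genes. These were 18.5% rises and 18.3% falls in NIH-3T3, and 15.6% rises and 15.9% falls in Scid.adh. In the pentose phosphate pathway, which branches from glucose 6-phosphate to make NADPH and ribose, 6 of 9 genes rose in NIH-3T3 and 0 fell (median 0.34). At an unadjusted p under 0.05 0 of the 9 fell, and DESeq2 called 0 as falls. In the Scid.adh knockout 5 of 9 fell and 1 rose (median −0.38). G6pdx, whose product starts the pathway, stood at 83.46 and 77.09 CPM in normal NIH-3T3 and 120.7 and 118.3 CPM with TCF-1 induced (log2 0.58, SE 0.05, adjusted p 2.11e-13), and at 104.6 and 101.4 CPM against 67.73 and 71.56 CPM in Scid.adh (log2 −0.56, SE 0.08, adjusted p 0.000248). Pgd had log2 fold changes of 0.56 and −0.49, H6pd rose by 0.52 in NIH-3T3, and Tkt fell by 0.40 on the log2 scale in Scid.adh.

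In the citric acid cycle, which takes up carbon from pyruvate in mitochondria, 9 of 16 genes fell in the Scid.adh knockout (median −0.22), among them Cs (log2 −0.44) and Ogdh (−0.48). In NIH-3T3 4 rose and 2 fell (median 0.05), and changes were small: 0.16 for Cs, 0.29 for Ogdh and −0.15 for Idh3b. Of the genes of glycogen metabolism 7 of 10 fell in NIH-3T3 (median −0.27), among them Gbe1, the branching enzyme (116.0 and 116.7 CPM against 47.30 and 49.02 CPM, log2 −1.27, adjusted p 2.84e-24), with Gys1 at −0.39. In Scid.adh 2 of 9 rose, Gyg (0.44) and Ugp2 (0.43).

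Beyond the 39, 23 of 33 other hypoxia-induced genes fell in NIH-3T3 and 3 rose (median −0.42). Ero1l, an oxidase of the endoplasmic reticulum, stood at 412.0 and 428.7 CPM in the normal libraries and at 144.4 and 151.9 CPM after induction (log2 −1.51, SE 0.04, adjusted p 3.39e-32). Plod2, a collagen lysyl hydroxylase gene, and Bhlhe40, a transcriptional repressor gene, fell by log2 values of 1.45 and 1.30. In Scid.adh 4 of 23 rose and 4 fell (17.4% each, median 0.07), near the 15.6% and 15.9% of all tested genes. Ccng2, a cyclin G gene, rose by 1.24 on the log2 scale. Car12, a carbonic anhydrase gene, and Stc1, a secreted hormone gene, fell by 1.09 and 0.91. Of the other components of the HIF pathway, 4 of 14 (28.6%) fell in NIH-3T3 and 1 (7.14%) rose, with a median of 0.00. Of all tested genes there 18.3% fell and 18.5% rose. Cited2, which restrains HIF, was at −0.58, Vhl, the recognition subunit of the ligase that removes HIF-1α, at −0.40 and Elob at 0.24. In Scid.adh 2 of 12 rose and 3 fell (median −0.10), with Arnt2 at 2.03 (0.7052 and 0.5339 CPM against 2.554 and 2.611 CPM), Egln2 at −0.40 and Crebbp at −0.35. Gys1, Gbe1 and Ppp1r3c stand in both the glycogen and the hypoxia list.

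**Figure D4:**
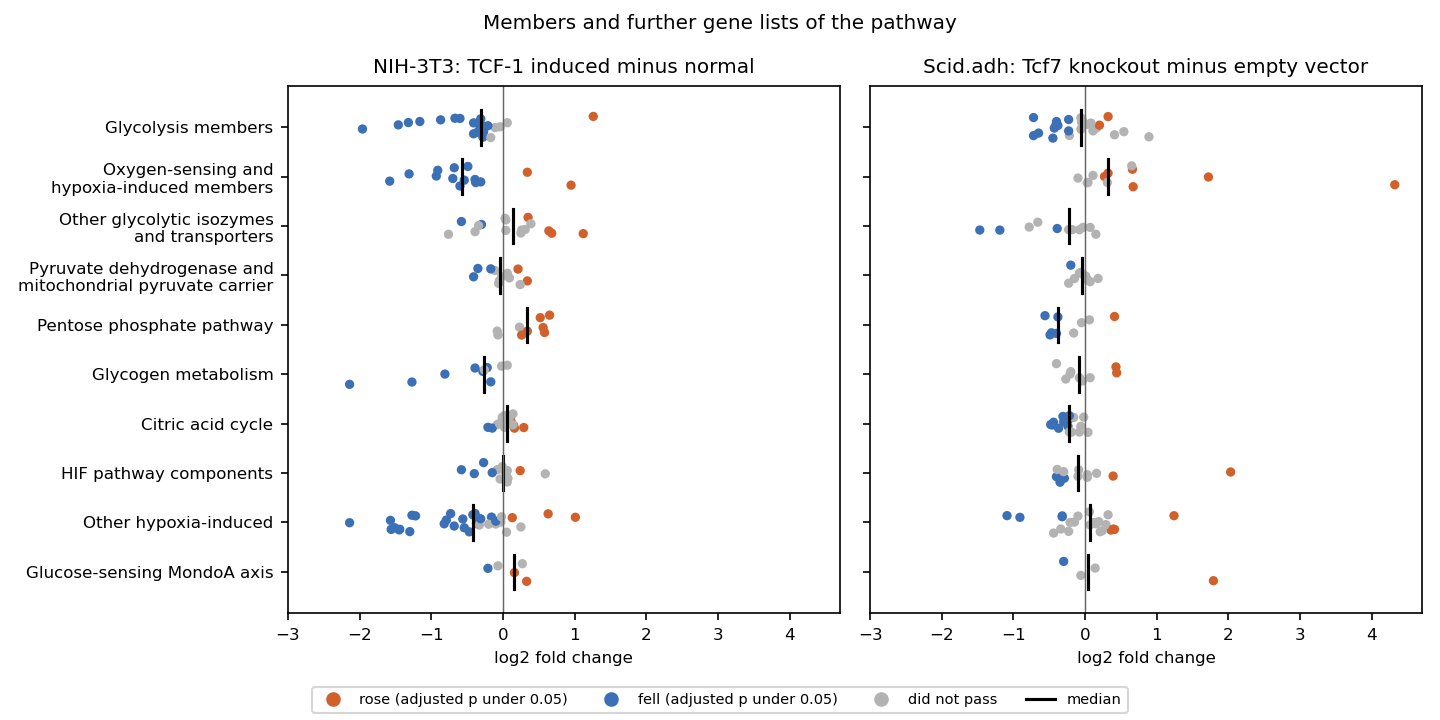
Each point is the log2 fold change of 1 tested gene, coloured by its call, and each black bar is the median of the list, for the genes described here (top 2 rows) and 8 further lists; vertical scatter within a row carries no meaning. In NIH-3T3 the medians of the hypoxia-induced rows lie left of 0 (−0.57 and −0.42) and that of the pentose phosphate row right of it (0.34), each row with points on both sides; in Scid.adh the medians of the pentose phosphate and citric acid cycle rows lie left of 0 (−0.38 and −0.22).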

How the data were processed

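The 8 deposited files hold gene counts that the authors made from RNA-seq reads, unnormalized, with 1 file per library. RNeasy Plus Micro extraction, SMARTer Stranded Total RNA-Seq Pico v2 libraries and a NextSeq 550 instrument were used per the labels' protocols. Tools and build, per the submitters' processing notes, were STAR 2.5.0a, HTSeq 0.6.1 and GRCm38 (mm10). Not given in the sources used here are the program that made the NIH-3T3 counts, the annotation release, the strand setting and the treatment of duplicates. Summary rows of unassigned reads, found in the Scid.adh files, were left out: reads counted there as having no feature were between 21.3% and 25.8% of all reads.

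Each line was fitted by itself with edgeR 4.0.16 in R 4.3.3 (filterByExpr, TMM scaling, robust quasi-likelihood F-test, Benjamini-Hochberg adjustment over all tested genes, call under 0.05), and the difference between the lines with 1 joint fit of the genes in both tables. The biological coefficient of variation was 2.41% in NIH-3T3 and 5.94% in Scid.adh. Replicates of every group differed by more than counting noise, and by far the most in the Scid.adh knockout. The chi-square per gene between replicates was 1.167 in normal and 1.913 in induced NIH-3T3. In Scid.adh it was 1.971 with the empty vector and 6.892 in the knockout. Alternatives used limma 3.58.1 and DESeq2 1.42.0. The scripts were tested on simulated data. Symbols, positions and merged exon lengths came from GENCODE M21, and promoters from RefSeq.

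The 39 genes and all further lists were chosen with earlier results of these data known. Genes given with every library's value are those called with at least a 1.5-fold change in either line and those called in Scid.adh, filled up to 2 per role by the most abundant (Pfkfb4); Adm was added after its values were seen. Of each further list, up to 3 called genes a line with the smallest adjusted p are named, apart from some that are not reported here.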

Additional observations from a re-analysis of the deposited data

Results flagged for a closer look

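For 27 of the 39 genes the response to more TCF-1 differed between the lines by the test of the difference itself (edgeR, adjusted p under 0.05; 28.8% of 15854 genes passed). Values are the log2 change on induction in NIH-3T3 minus the log2 change from knockout to empty vector in Scid.adh. In uptake and upper glycolysis they were −1.12 for Slc2a1, −1.09 for Slc2a3, −1.18 for Hk1, −2.46 for Hk2, −0.87 for Gpi1, −0.30 for Pfkm, −1.64 for Pfkp, −0.46 for Aldoa, −0.39 for Tpi1 and −2.16 for Pfkfb3. In lower glycolysis and lactate handling they were −0.68 for Gapdh, −0.38 for Pgam1, −0.70 for Eno1, −0.95 for Eno2, −0.73 for Pkm, −0.54 for Ldha, 1.16 for Slc16a1, −0.37 for Pdk1 and −0.38 for Pdk3. Among oxygen sensors and hypoxia-induced genes they were 0.95 for Hif1a, −0.47 for Egln1, −0.94 for Egln3, 1.30 for Bnip3, −1.51 for Ankrd37, 2.97 for Ndrg1, −0.83 for Vegfa and −0.64 for Kdm3a. Of these 27 calls 19 held under every setting tried. Slc2a3, with 21 counts or fewer in every NIH-3T3 library, Pfkm, which gave no call in either line, Pdk3 and Eno2 each lost the call under several settings, Pgam1 with cyclic loess scaling and without normal replicate 1, and Aldoa, Tpi1 and Pdk1 with cyclic loess scaling. The groups hold 2 libraries each, so no library could be tested as standing apart from its group.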

How the results depend on the processing

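Of 34 genes called in NIH-3T3, 33 kept their direction and call under every setting tried; Slc2a3 did not. Of 18 called in Scid.adh 11 did, and Egln1, Gpi1, Kdm3a, Ldha, Ldhb, Pgk1 and Slc2a1 lost the call under at least 1 setting. Of 27 calls in the test of the difference 19 were kept, and Aldoa, Eno2, Pdk1, Pdk3, Pfkm, Pgam1, Slc2a3 and Tpi1 were lost under at least 1 setting. With the replicate block, Ldhb lost its call in Scid.adh and Slc2a3 in the test of the difference. No called gene reversed. DESeq2's test called fewer genes overall: 1977 rises and 2035 falls in NIH-3T3 (3361 and 3332 with edgeR), 880 and 1080 in Scid.adh (1861 and 1899), and 1268 higher in the test of the difference (2294). Upper-quartile scaling gave 1215 falls in Scid.adh. Leaving out 1 library gave 5 to 11 rises among the 39 in Scid.adh, and over all genes there 1059 to 1911 rises and 1162 to 2321 falls. Uncalled values changed sign as follows. Without 1 library, Pfkfb4 ranged from −0.34 to 0.12 and Slc16a3 from −0.57 to 0.09 in NIH-3T3. In Scid.adh, upper-quartile scaling gave 0.02 for Aldoa, 0.04 for Tpi1, 0.02 for Pgam1 and 0.03 for Slc16a1. Cyclic loess gave 0.09 for Aldoa, 0.07 for Tpi1, −0.27 for Eno2, 0.11 for Slc16a1, −0.37 for Slc16a3 and −0.06 for Ankrd37. With no filter Pdk3 was −0.03, Hif1a −0.02 and Egln3 −0.02. Without 1 library Tpi1 ranged from −0.14 to 0.06, Pgam1 from −0.13 to 0.01, Pdk3 from −0.13 to 0.19 and Egln3 from −0.05 to 0.09. The causes were not tested.

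Replicate numbers are shared between groups, and the labels do not say what they mark. Over all tested genes same-numbered libraries did not deviate together (correlation 0.012 in NIH-3T3 and 0.001 in Scid.adh). Such a correlation cannot exclude a pairing that touches only some genes. With the replicate number as a block, 3 of the 39 genes rose and 31 fell in NIH-3T3, 7 rose and 10 fell in Scid.adh, and 4 were higher and 22 lower in the test of the difference. Over all genes the block gave 3633 rises and 3577 falls in NIH-3T3 and 2028 and 2010 in Scid.adh.

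With 2 libraries a group, changes of genes at a few counts, such as Slc2a3 and Slc16a3 in NIH-3T3 or Eno2 and P4ha2 in Scid.adh, were not well resolved, and the Scid.adh libraries were the shallower and more variable ones. A lone library left in a group is assumed to vary like the other groups. Doxycycline and TCF-1 cannot be told apart in NIH-3T3.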

Other observations

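Pyruvate enters mitochondria through a carrier and is oxidised by the pyruvate dehydrogenase complex, and these genes moved little in either line. Of 12 tested in NIH-3T3, 2 rose and 3 fell (median log2 fold change −0.03), where 18.5% of all tested genes rose and 18.3% fell. Dlat, for the acetyltransferase subunit, stood at 66.38 and 68.88 CPM in the normal libraries and 51.18 and 50.24 CPM after induction (log2 −0.41, edgeR adjusted p 7.29e-08), with Pdk2 at 0.34 and Pdp2 at −0.35. In Scid.adh Dlat was the only call among 10 tested, at −0.20, where 15.9% of all tested genes fell and 15.6% rose.

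Txnip, which encodes an inhibitor of glucose uptake whose transcription follows glucose through MondoA, stood at 10.58 and 13.35 CPM in empty vector libraries against 39.88 and 42.61 CPM in the Scid.adh knockout. It rose by a log2 value of 1.79 (SE 0.14, edgeR adjusted p 2.69e-06), with no overlap. In NIH-3T3 it fell, from 209.0 and 208.9 CPM to 176.3 and 184.2 CPM (log2 −0.21, SE 0.04, adjusted p 2.27e-05). Of the other genes of this axis, Mlx and Mlxip rose in NIH-3T3 (0.33 and 0.16), and Mlxip fell in Scid.adh (−0.30).

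Among isozymes and transporters outside the 39, 4 of 16 rose and 2 fell in NIH-3T3, and 3 of 11 fell in Scid.adh. Bsg, the chaperone that brings monocarboxylate transporters to the cell surface, stood at 847.5 and 825.6 CPM in normal NIH-3T3 and at 560.5 and 561.3 CPM with TCF-1 induced (log2 −0.58, SE 0.03, adjusted p 5.47e-20), in the libraries where Slc16a1 rose. Eno3, the muscle enolase gene, rose by 1.12 from 4.942 and 5.343 CPM, and Slc2a10 by 0.68. In Scid.adh Fbp1, for a gluconeogenic phosphatase, fell by 0.39 on the log2 scale, Gapdhs by 1.47 and Slc2a4 by 1.19, the last 2 from under 4 CPM.

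The second gene entry of Aldoa had 20, 20, 9 and 7 counts in the normal and induced NIH-3T3 libraries (log2 −1.20, adjusted p 0.0181), and was not tested in Scid.adh.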
